A study of Homo sapiens with 8 samples.

Results

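Replication-dependent histone genes supply the histones that package newly copied DNA. In 8 ribosome-profiling libraries of IMR32 cells, 67 of the 60651 genes in the deposited table belonged to this class, and 58 of them were among the 11778 genes tested. The members were the protein-coding genes whose current symbol starts with H2AC, H2BC, H3C or H4C and does not end in P, the mark of a pseudogene, together with H1-1 to H1-5. They comprised 5 linker histone (H1) genes, 15 H2A, 19 H2B, 13 H3 and 15 H4 genes. The test took in genes that averaged 1 TPM or more across the 8 libraries; TPM is a length-scaled level with the same total in every library. Values of single libraries are given in the order of replicates 1 to 4.

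IMR32 is an established human neuroblastoma line, labelled as neuroblast in cell type and wild type in genotype. Cells of 4 libraries had received CR31B, a silvestrol analogue of the rocaglate class that inhibits the RNA helicase eIF4A, and cells of 4 had received DMSO, given as 0.1% in the series' design text, which calls the replicates biological. After 6 h, cycloheximide, which stops elongating ribosomes, was added and the cells were harvested. Fragments of 28 to 30 nt protected by ribosomes were sequenced, so each value is a footprint level: it combines how much of an mRNA was present with how densely ribosomes occupied it. Total mRNA was not analysed here, so a change in mRNA amount and a change in translation cannot be told apart. In these bulk samples, fewer cells of a type and less RNA per cell cannot be told apart either.

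Histones H2A, H2B, H3 and H4 form the spool around which DNA winds, and H1 binds the linker DNA between spools. Their genes stand in clusters of many near-identical copies and are read mainly in S phase, when DNA is copied. Their mRNAs have no introns and, alone among animal mRNAs, end in a conserved stem-loop in place of a poly(A) tail. The stem-loop binding protein SLBP holds that structure and promotes processing, export and translation. The labels name size selection of protected fragments and no selection for poly(A), so mRNAs of this kind could enter the libraries.

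The stem-loops are shown because they take the place of the poly(A) tail and because their sequence set H4 apart from the other core families. A complete stem-loop lay in the annotated 3′ UTR of 29 of the 67 members in the GENCODE release 29 transcripts, from 22 to 56 nt after the stop codon, with a median of 35. The models of 34 members hold coding sequence alone, so no stem-loop could be read there, and 4 of the 5 H1 models are of this kind. In each line below, the DNA-strand sequence runs 5′ to 3′, and the capitals mark the 6-base stem, the 4-base loop and the other arm of the stem.
H2AC8, GRCh38 chr6:26217412-26217437, plus strand: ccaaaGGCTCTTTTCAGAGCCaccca
H2BC5, GRCh38 chr6:26158582-26158607, plus strand: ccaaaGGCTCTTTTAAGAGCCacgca
H3C6, GRCh38 chr6:26225591-26225616, plus strand: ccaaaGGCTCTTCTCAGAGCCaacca
H2AC11, GRCh38 chr6:27133510-27133535, plus strand: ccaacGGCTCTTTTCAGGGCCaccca
H4C5, GRCh38 chr6:26204996-26205021, plus strand: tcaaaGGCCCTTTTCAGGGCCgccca
H4C14, GRCh38 chr1:149833027-149833052, plus strand: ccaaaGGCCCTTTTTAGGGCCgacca

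Among these 29 members the form shown for H2AC8 was the most frequent, with 15 members of the H2A, H2B and H3 families, and the form of H2BC5 had 4. The forms of H3C6 and H2AC11 each occurred once. All 8 H4 genes with a stem-loop had one of the forms shown for H4C5 (5 members) and H4C14 (3 members), and no H2A, H2B or H3 member had either.

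The promoters of the 4 H1 genes that were tested are shown because all 4 had higher mean footprint levels in CR31B. Each line gives the 150 bases before the transcription start from RefSeq (GRCh38.p14), and capitals mark 4 motifs searched on both strands, none contained in another: the H1 box AAACACA, the octamer ATTTGCAT, CCAAT and TATAAA.
H1-2, GRCh38.p14 chr6:26056471-26056620, minus strand: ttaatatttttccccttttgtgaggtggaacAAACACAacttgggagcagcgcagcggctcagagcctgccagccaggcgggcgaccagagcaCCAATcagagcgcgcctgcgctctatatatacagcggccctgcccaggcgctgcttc
H1-3, GRCh38.p14 chr6:26234988-26235137, minus strand: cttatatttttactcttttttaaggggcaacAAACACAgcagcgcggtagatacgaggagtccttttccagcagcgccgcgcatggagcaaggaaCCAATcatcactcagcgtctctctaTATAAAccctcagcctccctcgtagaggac
H1-4, GRCh38.p14 chr6:26156179-26156328, plus strand: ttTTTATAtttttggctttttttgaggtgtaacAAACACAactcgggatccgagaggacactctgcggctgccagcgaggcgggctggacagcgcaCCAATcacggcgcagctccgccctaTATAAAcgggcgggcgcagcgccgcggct
H1-5, GRCh38.p14 chr6:27867589-27867738, minus strand: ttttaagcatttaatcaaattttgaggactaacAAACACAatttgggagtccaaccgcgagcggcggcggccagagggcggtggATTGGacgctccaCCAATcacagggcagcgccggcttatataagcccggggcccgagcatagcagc

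Promoters were found in RefSeq for 61 members. Within 250 bases before the start, the H1 box occurred in 5 of 5 H1 promoters and in no core histone promoter, against 4.95% of all 27305 promoters. The octamer occurred in 11 of 14 H2A and 14 of 18 H2B promoters and in none of the H1 or H4 promoters, against 1.66% of all. The 1 match among 11 H3 promoters, H3C4, has the same RefSeq start as H2AC7, so that window is counted under both genes here and in the shares that follow. A CCAAT box occurred in 83.6% of the members against 33.0% of all promoters, and TATAAA in 65.6% against 11.1%. Among the 13 H4 promoters, CCAAT occurred in 3. These matches describe letters in a window and are not binding sites. As background, rocaglates clamp eIF4A onto runs of purines in mRNA. A run of 8 or more purines within the first 50 transcribed bases occurred in 8.20% of the members and in 20.5% of all RefSeq starts, and the median longest run was 4 bases in the members and 5 in all.

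Summed over the 67 members, histone genes took 6.27%, 5.08%, 4.83% and 5.14% of all TPM with CR31B and 5.75%, 5.10%, 4.42% and 4.87% with DMSO. Replicate 1 was the highest and replicate 3 the lowest library of both groups, and the groups overlapped. The same libraries set most single genes: 45 of the 58 tested members were highest in replicate 1 within CR31B and 42 within DMSO, while 37 and 41 were lowest in replicate 3. Of TPM in protein-coding genes alone, the members took 9.19% to 10.2% with CR31B and 8.45% to 9.78% with DMSO, and each replicate number was higher with CR31B.

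Mean levels of tested members ran from 196 to 2162 TPM in the H1 family and from 52.0 to 2073 TPM in H2A. The other families reached lower, from 1.87 to 1311 TPM in H2B, from 1.61 to 3008 TPM in H3 and from 2.74 to 3282 TPM in H4. A mean of at least 1000 TPM was reached by 21 members, another 28 lay from 100 to 1000 TPM, 9 tested members were lower, and 9 were not tested. The 10 highest members held 46.3% of the summed mean: H4C14, H3C2, H4C3, H4C8, H1-5, H3C7, H2AC8, H2AC20, H3C12 and H4C12. No H2B gene was among them. Levels within a family need not reflect separate genes, because the copies share sequence. Of the tested members, 14 had fewer than 50% of their 28-base windows unique among annotated transcripts. H3C14 and H3C15 have the same transcript sequence and held the same value in every library, so they are 1 measurement listed under both names. H4C14, at a mean of 3282 TPM, and H4C15, at 0.694 TPM, share nearly all windows, so the division between them is uncertain. H1 genes were the most separable family, with 97.2% to 100% of windows unique.

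**Figure D1:**
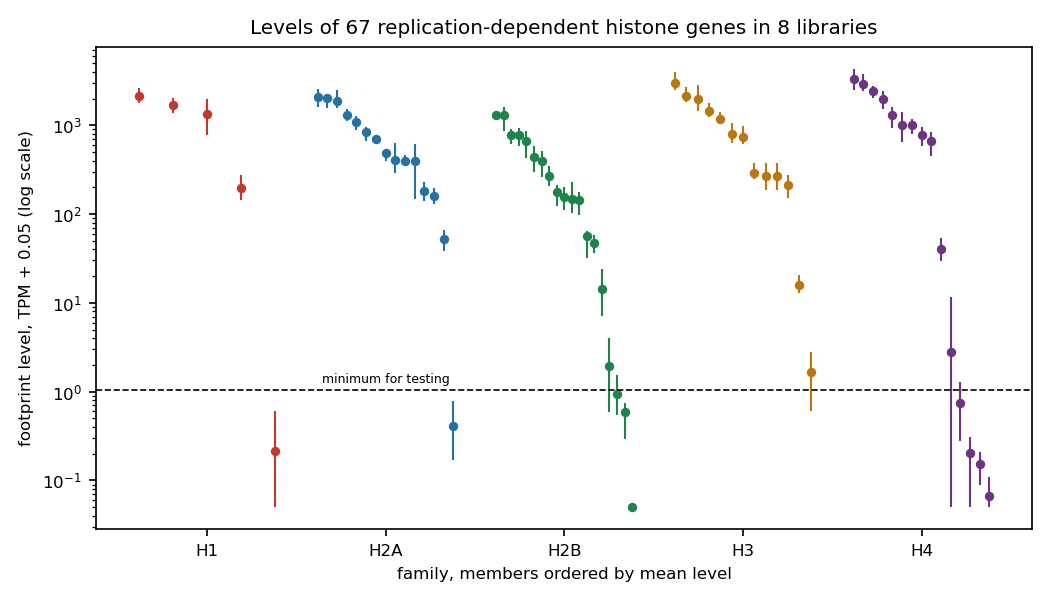
Mean footprint level of each of the 67 histone genes (points) with the lowest and highest of 8 libraries (bars), on a log axis of TPM + 0.05, ordered within each family; the dashed line marks the minimum of 1 TPM. Most members of each family sit above 100 TPM, and 9 members lie under the line.

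The first comparison asked whether footprints of the histone class changed, relative to other genes, under eIF4A inhibition. TPM has the same total in every library, so a change common to all genes would not show, and rises and falls are relative. The median member lay near 0: the log2 fold change of the 58 tested members had a median of 0.04, against 0.03 for all genes tested, and 35 members (60.3%) were above 0 against 54.1% of all genes. The median of the members was -0.05 without CR31B replicate 1 and -0.04 without DMSO replicate 3. By limma with Benjamini-Hochberg adjustment at a threshold of 0.05, 1 member, H1-4, rose and none fell, where 3.45% of all genes were called higher and 4.02% lower. With the replicate number as a block, H1-3 also passed, giving 2 members higher where 5.77% of all genes were. Without adjustment, 7 members (12.1%) had a limma p under 0.05 against 23.4% of all genes, 5 of them higher and 2 lower. Groups did not overlap, in either direction, for 4 members (6.90%) against 16.2% of all genes. These 4, H1-4, H2AC21, H4C3 and H4C5, were all higher in CR31B, where 8.07% of all genes were higher without overlap. These p-values measure the spread between replicates whose common origin, if any, the labels do not state.

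Level matters to such counts, so members and all genes were also set side by side at 100 TPM and above. There the median absolute log2 fold change was 0.12 for 49 members and 0.17 for all 1025 genes of that level. A difference of 0.5 or more in either direction was reached by 1 of those 49 members, H1-4, and by 12.7% of the 1025 genes. A missing call does not show equal levels. The 95% confidence interval lay wholly within 0.5 of 0 for 24 of the 58 members and wholly within 1 for 54. The remaining 4 were H1-4 and the low genes H3C3, H2BC3 and H4C11.

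**Figure D2:**
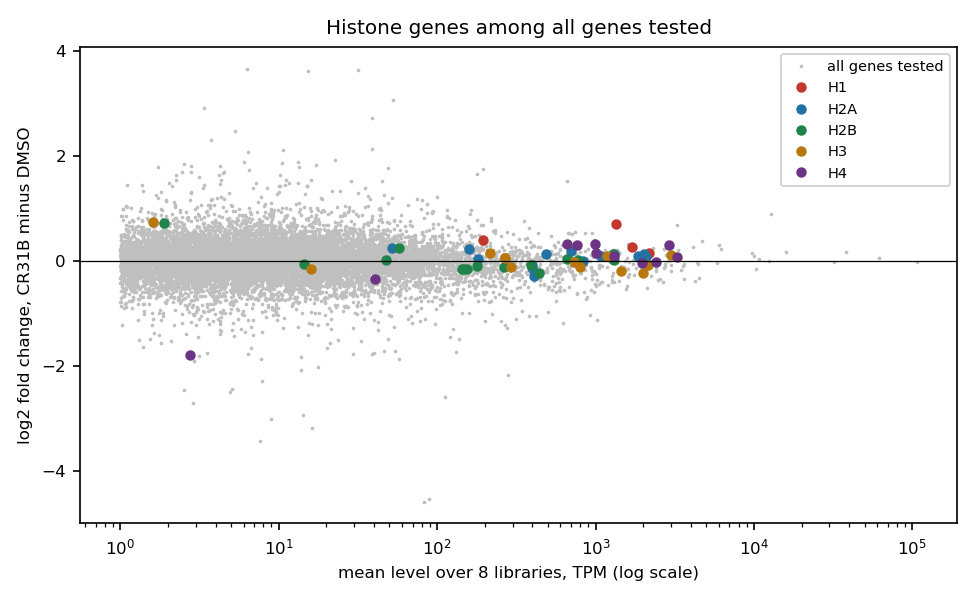
Log2 fold change (CR31B minus DMSO, of TPM + 1) against mean level on a log axis for all genes tested (grey) and for 58 histone genes coloured by family. Most histone genes lie at high level and close to 0, and H1-4 stands above them at 0.71.

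The summed level of the linker histone family was higher in every CR31B library than in any DMSO library. H1 proteins bind the nucleosome at the point where DNA enters and leaves and compact the fibre. The sum came to 6566, 5287, 6170 and 6154 TPM with CR31B, against 5238, 5067, 4378 and 4488 TPM with DMSO. The lowest CR31B value, in replicate 2, was close to the highest DMSO value. In replicate 2, H1-2 and H1-5 were lower with CR31B (1673 against 1699 TPM, and 1801 against 2110 TPM). The higher sum there came mainly from H1-4 (1605 against 1094 TPM). H1-4 was also the only tested gene of the family whose own groups did not overlap, so the separation of the sums leans on that gene. The means of 6044 ± 540 and 4793 ± 424 TPM (SD, n = 4) gave a ratio of 1.26. H1 genes made up 11.4% ± 1.16 of the histone sum in CR31B and 9.54% ± 0.438 in DMSO, again without overlap, and this share is the same under any common scaling factor per library. Leaving out single libraries moved the log2 ratio of the sums between 0.29 and 0.39. No test was made over the family, and whether it differs from the others was not tested.

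H1-4 (ENSG00000168298.7, chr6:26156329-26157115 in RefSeq GRCh38.p14, plus strand) had the largest difference of the family. It had 1963, 1605, 1469 and 1639 TPM with CR31B, against 1255, 1094, 769 and 1011 TPM with DMSO. The lowest CR31B library, replicate 3, lay above the highest DMSO library, replicate 1, and each replicate number was higher in CR31B. H1-4 rose by 0.71 on the log2 scale (± 0.17 SE, adjusted limma p of 0.0314), with a 95% confidence interval from 0.33 to 1.08 and an exact permutation p of 0.0286, the smallest that 4 against 4 libraries allow. With the replicate block the SE was 0.10 and the adjusted limma p 0.00717. The limma call was lost without CR31B replicate 1 (adjusted p of 0.0626), CR31B replicate 2 (0.0575), CR31B replicate 4 (0.0742), DMSO replicate 2 (0.0654) or DMSO replicate 4 (0.0881), and without a minimum level (0.120). The log2 fold change itself ran from 0.57, without DMSO replicate 3, to 0.81, without DMSO replicate 1.

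H1-3 (ENSG00000124575.7), a lower member of the family, had 275, 208, 192 and 221 TPM with CR31B, against 198, 163, 145 and 167 TPM with DMSO. Each replicate number was higher in CR31B, but CR31B replicate 3 lay below DMSO replicate 1, so the groups overlapped. Its log2 fold change was 0.40 (± 0.14 SE, adjusted limma p of 0.118, exact permutation p of 0.0571). With the replicate block the SE was 0.079 and the adjusted limma p 0.0211. Rescaling over protein-coding genes (0.0266) and quantile normalization (0.0218) also brought the adjusted p under 0.05.

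H1-2 (ENSG00000187837.4) and H1-5 (ENSG00000184357.5), the most abundant H1 genes, did not pass. H1-2 had 2016, 1673, 1892 and 1885 TPM with CR31B, against 1653, 1699, 1381 and 1479 TPM with DMSO. The replicate 2 libraries ran against the other 3 pairs, and the log2 fold change was 0.27 (± 0.13 SE, adjusted limma p of 0.245, exact permutation p of 0.0571). H1-5 had 2311, 1801, 2618 and 2409 TPM with CR31B, against 2131, 2110, 2084 and 1831 TPM with DMSO. CR31B replicate 2 was the lowest library of all 8 here, and the log2 fold change was 0.15 (± 0.15 SE, interval from -0.18 to 0.48, adjusted limma p of 0.586). H1-1, the fifth gene of the family, had a mean of 0.164 TPM and was not tested.

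**Figure D3:**
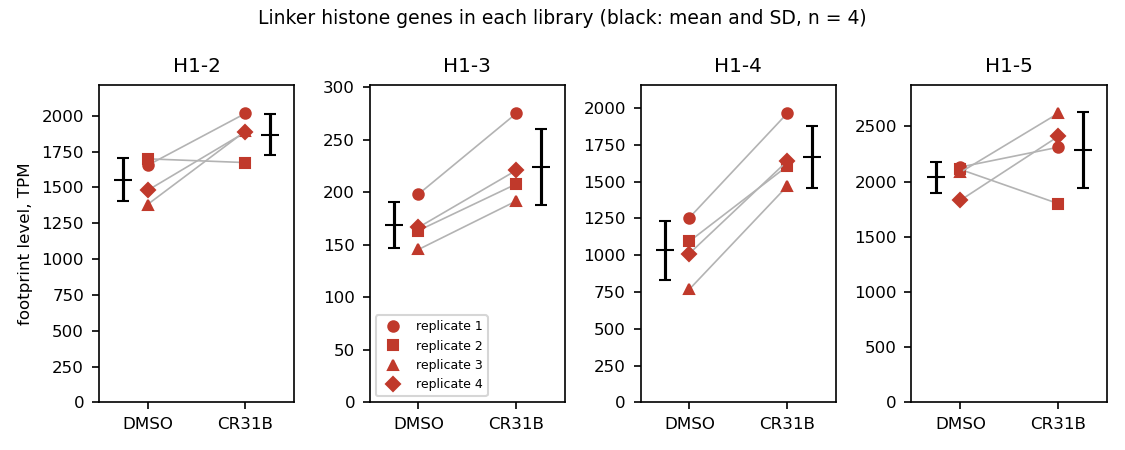
Footprint level (TPM) of the 4 tested linker histone genes in each library, with grey lines joining the same replicate number and black marks for mean and SD (n = 4). H1-4 and H1-3 were higher in CR31B in each replicate number, while replicate 2 ran downward for H1-2 and H1-5.

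H2A genes, which encode the partner of H2B in the outer dimers of the nucleosome, gave a sum of 12285 ± 1315 TPM with CR31B against 11701 ± 1329 TPM with DMSO (SD, n = 4). The groups overlapped, although each replicate number was higher in CR31B, and the log2 ratio of 0.07 was -0.00024 without CR31B replicate 1. Of 14 tested members 11 had log2 fold changes above 0 and the median was 0.09, and none passed. H2AC8, with the highest mean of the family, had 2565, 2319, 1683 and 1934 TPM with CR31B, against 2249, 2293, 1601 and 1938 TPM with DMSO. These values followed the replicate number more than the treatment, and the log2 fold change was 0.07 (± 0.18 SE, adjusted limma p of 0.864).

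H2AC21 (ENSG00000184270.6), in the chromosome 1 cluster, was the H2A gene whose groups did not overlap, and it was singled out after its values were seen. It had 753, 745, 692 and 780 TPM with CR31B, against 671, 633, 673 and 641 TPM with DMSO. The log2 fold change was 0.18, with an SE of 0.10 and an adjusted limma p of 0.333. H2AC13, one of the 3 members with the most negative log2 fold change, had 355, 330, 317 and 440 TPM with CR31B, against 634, 480, 286 and 409 TPM with DMSO. DMSO replicates 1 and 2 were above all CR31B libraries and DMSO replicate 3 below them, and the log2 fold change was -0.28 (adjusted limma p of 0.485).

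The sum over H2B genes differed by less than its spread, at 6642 ± 750 TPM with CR31B against 6669 ± 947 TPM with DMSO (SD, n = 4), with 2 of 4 replicate numbers higher in CR31B. Of 16 tested members 7 were above 0, the median was -0.04, and none passed. The log2 ratio of the sums, -0.01, turned to 0.03 after rescaling over protein-coding genes. H2BC5, the highest, had 1238, 1291, 1310 and 1453 TPM with CR31B, against 1242, 1260, 1302 and 1392 TPM with DMSO. The groups overlapped, and the log2 fold change was 0.03 (± 0.12 SE, interval from -0.23 to 0.28, adjusted limma p of 0.925).

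Many H2A and H2B genes stand head to head and share the stretch between their starts. For 12 such pairs the gap was from 193 to 247 nt, and the ratio of the H2A to the H2B mean level ran from 0.409 for H2AC1 and H2BC1 to 141 for H2AC20 and H2BC21. H2AC20 had a mean of 2036 TPM and H2BC21, on the other side of the same gap, 14.4 TPM. TPM divides by model length, and these models are unlike: in GENCODE release 29 that of H2AC20 has 390 nt, all coding, and that of H2BC21 2194 nt, of which 381 are coding. By these lengths the gap in reads was narrower, with an estimated 49726 for H2AC20 and 2663 for H2BC21 in CR31B replicate 1. The identifier version of H2AC20 in that release is not that of the deposited table, so the length behind its TPM may differ. Of the windows of H2AC20, 45.7% were unique, and of those of H2BC21 86.6%.

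H3 genes, whose protein carries many of the known tail modifications, summed to 15874, 11074, 10865 and 11252 TPM with CR31B, against 14347, 12440, 10972 and 12247 TPM with DMSO. CR31B replicate 1 stood far above the other 3 CR31B libraries, and in the other 3 replicate numbers CR31B was lower. The log2 ratio of the sums was -0.03, and -0.18 without CR31B replicate 1, but was 0.05 without DMSO replicate 1. CR31B replicate 1 also had the largest share of TPM in protein-coding genes, 61.7% against at most 58.8% in the other libraries, and the part of this in the result was not tested. Of 13 tested H3 members 6 were above 0, the median was -0.02, and none passed. That median was 0.02 after rescaling over protein-coding genes and 0.09 after quantile normalization.

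H3C2, the highest H3 gene, had 3990, 2837, 2768 and 2964 TPM with CR31B, against 3429, 2773, 2478 and 2826 TPM with DMSO. Each replicate number was higher in CR31B, by less than the spread within the groups, and the log2 fold change was 0.12 (± 0.17 SE, adjusted limma p of 0.720). H3C3 had the most positive log2 fold change of all members, 0.74 (± 0.24 SE, adjusted limma p of 0.0859, exact permutation p of 0.0857), at a level just above the minimum. It had 2.33, 1.82, 2.74 and 1.95 TPM with CR31B, against 2.17, 0.55, 0.63 and 0.66 TPM with DMSO. DMSO replicate 1 lay among the CR31B libraries, and without it the adjusted limma p was 0.0172.

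H4 genes, whose protein pairs with H3 in the centre of the nucleosome, had the largest summed level of the 5 families. The sum was 16047 ± 1837 TPM with CR31B against 14686 ± 1592 TPM with DMSO (SD, n = 4). Each replicate number was higher in CR31B, and the groups overlapped. Of 11 tested members 7 were above 0, with a median of 0.10, and none passed. H4C14, the highest of all 67 members, had 4310, 2953, 2810 and 3324 TPM with CR31B, against 4283, 2970, 2517 and 3086 TPM with DMSO. Here the replicate number outweighed the treatment, with a log2 fold change of 0.07 (± 0.20 SE, adjusted limma p of 0.883).

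A group of 4 H4 genes, H4C1, H4C3, H4C5 and H4C13, was singled out after its values were seen. In each of them every replicate number was higher in CR31B, a pattern found in 11 of the 58 tested members (19.0%) and in 20.1% of all genes tested. Their log2 fold changes were 0.33, 0.31, 0.32 and 0.30, with adjusted limma p of 0.214, 0.216, 0.146 and 0.261. With the replicate block these adjusted p were 0.0632, 0.0750, 0.0555 and 0.0649, and with the block and rescaling over protein-coding genes together, a combination chosen after seeing the data, all 4 fell under 0.05. H4C3 had 3799, 2900, 3257 and 2902 TPM with CR31B, against 2807, 2475, 2607 and 2432 TPM with DMSO. H4C5 had 1162, 1072, 1178 and 1019 TPM with CR31B, against 855, 892, 1014 and 788 TPM with DMSO. For both genes every CR31B library lay above every DMSO library, by a narrow margin for H4C5. This was so for 4 of the 58 tested members and for 8.07% of all genes tested. Such separation by itself sets the exact permutation p at 0.0286, so that p adds no separate support for genes singled out by their values.

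H4C16 and H4C11 were among the 3 members with the most negative log2 fold change. H4C16, which stands alone on chromosome 12 outside the large clusters, had 29.9, 33.9, 42.7 and 35.4 TPM with CR31B, against 38.9, 50.8, 54.1 and 38.5 TPM with DMSO. Each replicate number was lower in CR31B while the groups overlapped, and the log2 fold change was -0.35 (adjusted limma p of 0.204). H4C11 was listed at 0 in all 4 CR31B libraries and in DMSO replicates 1 and 3, and at 10.2 and 11.7 TPM in DMSO replicates 2 and 4. Of its windows 82.4% occur in other histone transcripts, so these values are uncertain.

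**Figure D4:**
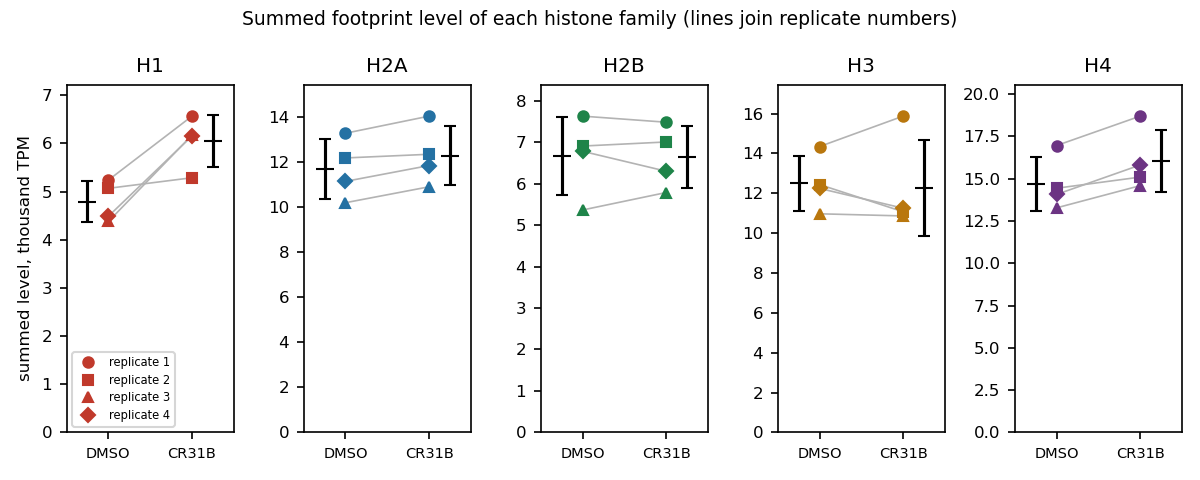
Summed footprint level (in units of 1000 TPM, axes from 0) of each histone family in each library, with grey lines joining the same replicate number and black marks for mean and SD (n = 4). H1 is the family whose groups do not overlap, and in H3 CR31B replicate 1 stands apart at 15874 TPM.

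The members nearest the minimum are given by their means. Just above it stood H3C3 (mean 1.61 TPM), H2BC3 (1.87), H4C11 (2.74), H2BC21 (14.4) and H3C8 (16.0). Just below it stood H2BC1 (mean 0.883 TPM), H4C15 (0.694), H2BC10 (0.535), H2AC1 (0.361) and H1-1 (0.164). Still lower were H4C6, H4C9 and H4C7, with means of 0.151, 0.105 and 0.0175 TPM, and H2BC12L was listed at 0 in every library. H2BC3 had 3.94, 1.98, 3.56 and 0.97 TPM with CR31B, against 1.64, 1.80, 0.54 and 0.56 TPM with DMSO. Its log2 fold change of 0.72 (± 0.32 SE, adjusted limma p of 0.203) rests on a few TPM.

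**Figure D5:**
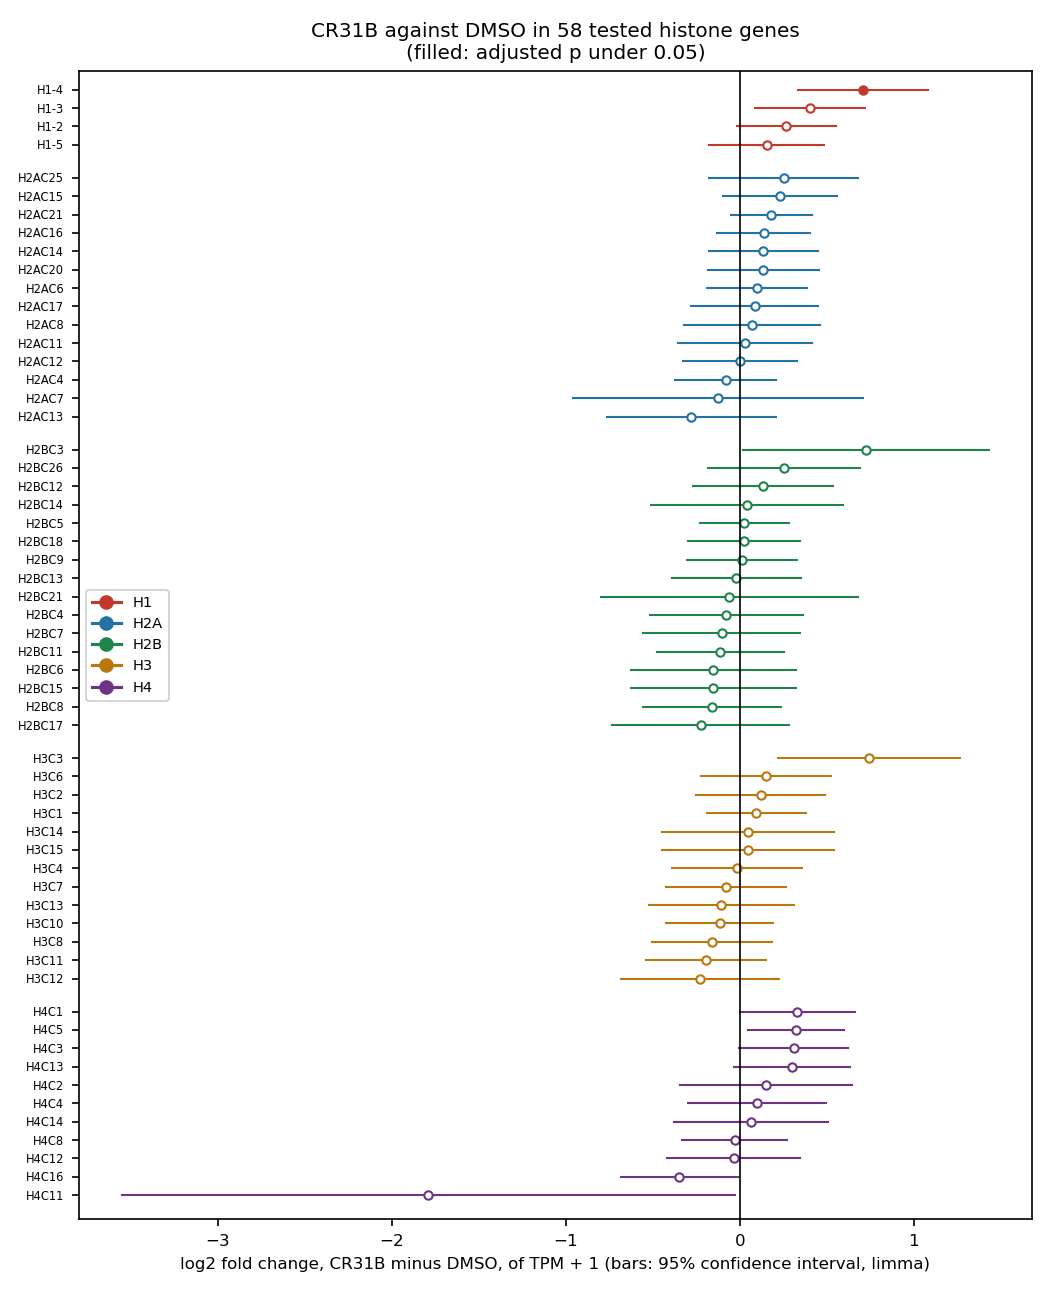
Log2 fold change (CR31B minus DMSO, of TPM + 1) with 95% confidence interval from limma for the 58 tested histone genes, grouped by family and ordered by value; filled points have an adjusted p under 0.05. Only H1-4, at 0.71, is filled; the bar of H4C11 is the widest, with 6 of its 8 libraries listed at 0.

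By position, the 33 members of the first cluster on chromosome 6 (chr6:25726063-26285534 in RefSeq GRCh38.p14) had a median log2 fold change of 0.09 over 27 tested, with 17 above 0. The 21 members of the second cluster there (chr6:27132316-27893891) had one of -0.01 over 20 tested, with 10 above 0. The 9 members of the larger cluster on chromosome 1 (chr1:149782689-149887965) had one of 0.05 over 8 tested, with 6 above 0. H1-2, H1-3 and H1-4 stand in the first cluster and H1-5 in the second.

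The machinery that makes histone mRNA was described from lists of other genes. Of all genes tested, 3.45% were called higher and 4.02% lower, and 5.77% higher with the replicate block. Of 16 tested genes for 3′ end processing and stem-loop binding, 1 rose, CPSF2, a cleavage factor subunit, from 28.0 ± 2.83 to 48.1 ± 9.80 TPM (log2 fold change 0.74 ± 0.15 SE, adjusted limma p of 0.0158, and 0.0547 without a minimum level). With the replicate block 3 of the 16 rose: CPSF2, LSM10, a subunit of the U7 particle that processes histone mRNA (log2 fold change 0.61, adjusted limma p of 0.0453), and FIP1L1, of the polyadenylation machinery (0.36, 0.0428). SLBP itself had 89.4, 71.6, 80.7 and 70.0 TPM with CR31B, against 65.3, 69.4, 69.8 and 73.2 TPM with DMSO. The groups overlapped and the log2 fold change was 0.16 (± 0.11 SE, adjusted limma p of 0.431). NPAT, the activator that gathers at histone gene clusters, was at 4.52 ± 0.279 TPM with CR31B against 3.63 ± 0.420 TPM with DMSO (SD, n = 4), with a log2 fold change of 0.26 (adjusted limma p of 0.250).

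Of 17 tested genes for histone gene transcription and S phase entry, 2 fell and none rose. Among all genes, 4.02% fell and 3.45% rose. The list had a median of -0.18 with 4 of 17 above 0, against 54.1% of all genes above 0. E2F2, an activator of S phase genes, had 4.53, 3.46, 2.44 and 2.76 TPM with CR31B, against 7.14, 5.34, 7.81 and 5.67 TPM with DMSO. All CR31B libraries lay below all DMSO libraries (log2 fold change -0.81 ± 0.18 SE, adjusted limma p of 0.0243). CDK2, the kinase that drives S phase entry and phosphorylates NPAT, had a log2 fold change of -0.53 (adjusted limma p of 0.0382). The call of E2F2 was lost without CR31B replicate 3 (adjusted limma p of 0.0522), CR31B replicate 4 (0.0683), DMSO replicate 1 (0.0693), DMSO replicate 3 (0.0530) or DMSO replicate 4 (0.0535). That of CDK2 was lost without any single library other than CR31B replicate 1, at adjusted limma p from 0.0600 (without DMSO replicate 2) to 0.100 (without CR31B replicate 4). With no minimum level CDK2 was not called either (adjusted limma p of 0.0975). Over all alternatives E2F2 kept its call in 10 of 16 and CDK2 in 9 of 17.

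Of 24 tested genes for histone mRNA translation and decay, 2 fell and none rose, with a median of 0.03 over the list. The shares over all genes were 4.02% lower and 3.45% higher. PAIP1, a translation factor that binds the poly(A)-binding protein, fell from 31.4 ± 2.06 to 19.9 ± 2.28 TPM (log2 fold change -0.63 ± 0.11 SE, adjusted limma p of 0.00998), a call that held in 17 of 17 alternatives. CTIF, a translation factor of the nuclear cap-binding complex, had a log2 fold change of -0.59 (adjusted limma p of 0.0265). Its call was lost without any single library other than CR31B replicate 2 or DMSO replicate 3, at adjusted limma p from 0.0506 (without CR31B replicate 3) to 0.0815 (without DMSO replicate 1). It was also lost with no minimum level (adjusted limma p of 0.0617), and held in 9 of 16 alternatives.

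Of 26 tested histone chaperones and importers, 1 rose and 2 fell, with a median of -0.04 over the list. Over all genes 3.45% rose and 4.02% fell. SUPT16H, a subunit of the FACT chaperone that handles H2A and H2B, rose by 0.43 on the log2 scale (± 0.11 SE, adjusted limma p of 0.0491). That call was lost whichever library was left out, at adjusted limma p from 0.0508 (without DMSO replicate 3) to 0.123 (without DMSO replicate 2). Over all alternatives it held in 6 of 17. SET, an inhibitor of histone acetylation and a chaperone, fell from 241 ± 28.6 to 156 ± 12.6 TPM (log2 fold change -0.63 ± 0.12 SE, adjusted limma p of 0.0122), held in 17 of 17 alternatives. KPNB1, the importin beta subunit that carries cargo such as H1 into the nucleus, had a log2 fold change of -0.59 (adjusted limma p of 0.0295). Its call was lost without CR31B replicate 2, 3 or 4 or DMSO replicate 1, 2 or 4, at adjusted limma p from 0.0529 to 0.0922. Over all alternatives it held in 10 of 17.

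Because histone genes are read mainly in S phase, 20 S phase markers were set beside them. All were tested. The list had a median of 0.01 with 11 above 0. Their summed level ran from 2192 to 2728 TPM in CR31B and from 2340 to 2548 TPM in DMSO, so the groups overlapped.

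Histone variants are made from genes outside the replication-dependent set, many of them throughout the cell cycle and from polyadenylated mRNA. Of 11 tested, 2 fell and 1 rose, where 4.02% and 3.45% of all genes did. Whether this differs from the replication-dependent genes was not tested. MACROH2A1, an H2A variant with a large extra domain, had 71.7, 62.7, 72.0 and 64.9 TPM with CR31B, against 128, 112, 150 and 130 TPM with DMSO. Its highest CR31B library lay far under its lowest DMSO library, with a log2 fold change of -0.92 (± 0.12 SE, adjusted limma p of 0.00204), and the call held in 17 of 17 alternatives. H2AZ2 went from 85.3 ± 12.5 to 52.2 ± 4.52 TPM (log2 fold change -0.69, adjusted limma p of 0.0119), also held in 17 of 17.

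H2AZ1, the more abundant gene for the same H2A.Z variant class, had 901, 982, 664 and 826 TPM with CR31B, against 1217, 1106, 1059 and 1153 TPM with DMSO. Groups did not overlap, but the log2 fold change of -0.44 had an adjusted limma p of 0.0891, and 0.0378 with the replicate block. H1-6, a testis linker histone gene of the chromosome 6 cluster, rose from 1.36 ± 0.431 to 5.27 ± 1.90 TPM (log2 fold change 1.38 ± 0.23 SE, adjusted limma p of 0.00647), held in 16 of 16 alternatives.

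Neither of the genes for replacement H3 passed. H3-3A was at 237 ± 24.9 TPM with CR31B and 230 ± 44.8 TPM with DMSO, and H3-3B at 972 ± 50.1 and 896 ± 45.1 TPM (SD, n = 4). Their log2 fold changes were 0.05 and 0.12, with adjusted limma p of 0.876 and 0.567. H2AX, the variant that marks DNA breaks when phosphorylated, was at 26.5 ± 4.96 and 22.3 ± 5.28 TPM, with a log2 fold change of 0.25 (adjusted limma p of 0.483).

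The label of the line was checked against markers. Of 16 adrenergic neuroblastoma markers 15 were tested, among them MYCN (mean 742 TPM) and HAND2 (226 TPM), while TH, of catecholamine synthesis, was under the minimum at 0.908 TPM. GAP43 fell (log2 fold change -1.02, adjusted limma p of 0.00354), HAND2 rose (0.58, adjusted limma p of 0.0188, and 0.0580 without DMSO replicate 2) and TBX2 rose (0.95, adjusted limma p of 0.0285). The call of TBX2 was lost without CR31B replicate 3 or 4 or DMSO replicate 1, 2 or 4, at adjusted limma p from 0.0565 to 0.0793. Over all alternatives it held in 11 of 17. Thus 1 of the 15 markers fell and 2 rose, against 4.02% and 3.45% of all genes. MYCN (higher) and DBH (lower) passed with the replicate block alone. Of 14 markers of mesenchymal and other cell types 4 were tested and none passed (COL1A1 fell with the replicate block, adjusted limma p of 0.0472), PRRX1, CD3E and PECAM1 were listed at 0, and the summed level ran from 128 to 163 TPM in CR31B and from 115 to 174 TPM in DMSO, most of it VIM. Depth is not given in the table. It was estimated by finding, in short low genes, the step in TPM that 1 read makes, with 72.9% to 80.0% of the values used lying within 0.2 of a whole read. By that estimate, with lengths from GENCODE release 29, H1-4 rested on 29848 to 87176 reads in a library and H1-3 on 4963 to 10727. The identifier versions of both genes differ between that release and the deposited table, so these numbers are approximate. A read was worth more TPM in CR31B in 4 of 4 replicate numbers, so CR31B values rest on fewer reads per TPM.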

How the data were processed

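Ribosome footprints of 8 IMR32 libraries were analysed. The authors deposited TPM per gene, with columns matched to libraries by their descriptions. Per the submitters' processing notes, which give no roles or order, the tools were cutadapt 3.2, Bowtie2 2.3.4.1, STAR 2.7.1a, RSEM 1.2.28 and DESeq2 1.32.0, and the build hg38 (GRCh38). The annotation, strand setting and treatment of reads with several positions are not given in the sources used here. TPM forces a fixed sum per library.

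Symbols came from a table of gene names (60481 of 60651 identifiers). Transcripts came from GENCODE release 29, which held 65 of 67 members by identifier and 2 by older symbol. Only 24 members had the same identifier version there as in the deposited table. Lengths, windows and read estimates from that release may therefore differ from the models behind the TPM. Promoters came from RefSeq. The RefSeq genes H2AC18 and H2AC19 fit the naming rule, but no symbol mapped from the deposited table matched them. They are therefore not among the 67 members or in the H2A sum, and the effect of this was not tested. Values were tested as log2(TPM + 1), which understates changes of low genes, with limma 3.58.1 in R 4.3.3 (lmFit, eBayes with trend, Benjamini-Hochberg over the 11778 genes that averaged 1 TPM or more). For single values, exact permutation tests (two-sided) used all 70 assignments. In simulated data for this comparison (11778 genes), 13.1%, 72.1% and 93.9% of genes changed by 0.5, 1 and 2 on the log2 scale were recovered, with 4.72% false calls. Each of the 5 simulated tables had 200 changed genes and independent noise without shared replicate effects. The main fit called 879 genes, so these rates need not hold for the real libraries.

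The labels do not state that replicate numbers pair the groups. Deviations across genes had r of 0.333, 0.324, 0.301 and 0.105 between same-numbered libraries, and from -0.206 to 0.134 between differently numbered ones. For CR31B replicate 4, r was higher with DMSO replicate 1 (0.134) than with DMSO replicate 4 (0.105). The main fit did not use the numbers as pairs. Alternatives were a replicate block, other pseudocounts, minimum levels and scalings, robust eBayes, and each library left out.

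The members and lists were chosen with earlier results of these data known. The text names members that passed, the highest of each family, the 3 highest and 3 lowest log2 fold changes, the 5 on either side of the minimum, fixed variant and regulator genes, and from each list the passing gene with the largest rise and fall. Names added with their values in view were H1-2, H1-3, H2AC21, the group of 4 H4 genes, CDK2, CTIF, KPNB1, H2AZ2, the head-to-head H2A and H2B pairs and the genes named as passing with the block alone. Results of some listed genes are not reported here.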

Additional observations from a re-analysis of the deposited data

Results flagged for a closer look

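Of 77 groups of 4 libraries examined, for named genes and family sums, 5 held a library far from the other 3 (its distance to the next library took up most of the group's range). Chance flags about 1 in 20 groups, or 3.85 here. In CR31B, replicate 1 stood high for the H3 sum (15874 TPM, others 10865 to 11252), for H3C2 (3990 TPM, others 2768 to 2964) and for the variant gene H3-3B (1047 TPM, others 943 to 949). In DMSO, H3C3 was high in replicate 1 (2.17 TPM, others 0.55 to 0.66) and H1-5 low in replicate 4 (1831 TPM, others 2084 to 2131).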

How the results depend on the processing

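The median of the histone members and the number above 0 stayed within the spread or within 1.5 times under the alternatives run for them, as did their summed share of TPM, which was recomputed only with the block, with rescaling over protein-coding genes and with single libraries left out. Yet the median ran from -0.05 to 0.14 as single libraries were left out, the number above 0 from 24 to 43, and the difference in summed share from -0.02 to 0.53 percentage points. It was 0.29 in the main analysis and, within replicate pairs, with the replicate block. Of all genes, 879 were called, 1453 with the replicate block, 442 with no minimum level, 1824 with block and rescaling over protein-coding genes together (chosen after seeing the data), and from 404 to 785 with 1 library left out. Of the members, 1 was called, 2 with the replicate block, with rescaling over protein-coding genes or with quantile normalization, 0 with no minimum level, 6 with block and rescaling together, and from 0 to 2 with 1 library left out. Of the supply, S phase and variant lists, 12 genes were called, 18 with the replicate block, 5 with no minimum level, 20 with block and rescaling together, and from 6 to 10 with 1 library left out. Leaving out 1 library turned signs: log2 fold changes ran from -0.038 to 0.17 for H2AC8 (-0.028 without CR31B replicate 1, -0.038 without DMSO replicate 3), from -0.021 (without CR31B replicate 4) to 0.059 for H2BC5, from -0.00066 (without CR31B replicate 1) to 0.21 for H3C2, from -0.061 to 0.21 for H4C14 (-0.061 without CR31B replicate 1, -0.041 without DMSO replicate 3) and from -0.053 (without DMSO replicate 3) to 0.14 for H3-3A. The replicate block changed no call of a named gene beyond those given with its result. The cause was not tested.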

Other observations

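Histone genes named as pseudogenes, which the rule left out, carried footprints too. Of 15 such genes 4 were tested and none passed. With CR31B against DMSO, H2BC27P had 305 ± 78.3 against 278 ± 60.8 TPM, H2BC16P 78.5 ± 34.7 against 77.3 ± 15.5 TPM, and H2BC19P 23.0 ± 3.17 against 18.8 ± 0.846 TPM (SD, n = 4). H2BC20P averaged 1.26 TPM, and the other 11 were not tested. The mean of H2BC27P lay above those of 21 tested members. How reads were divided between these and the H2B genes was not tested.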
